A study of Mus musculus with 12 samples.

Results

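The 7 genes described here encode the nuclear and membrane receptors through which estradiol, progesterone and glucocorticoids act on the mouse reproductive tract: Esr1, Esr2, Pgr, Gper1, Nr3c1, Pgrmc1 and Pgrmc2. They were chosen by name, each gene read from its brightest probe set averaged across the 4 groups, and make up 7 of the 19938 genes measured. Each had 1 probe set naming it and no other gene. Transcript levels were read on 12 Affymetrix mouse gene arrays in 4 groups of 3 biological replicates, and every array held RNA of a single sample. The E2 oviduct and E2 uterus groups came from mice injected under the skin with estradiol (E2) at 10 µg/kg once a day on days 0.5 to 2.5 of early pregnancy, in 100 µl of sesame oil. The oil oviduct and oil uterus groups came from mice given the oil alone. All tissue was collected on day 3.5, before implantation, and oviducts and uterine horns were flushed before freezing. The labels name no strain, age or transgene. They do not say whether arrays with the same replicate number share a mouse, or whether each replicate is 1 animal, so the p-values measure the spread between these arrays.

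Steroid receptors of the nuclear class wait in complexes with heat shock protein chaperones, bind their hormone, and then act on target genes together with coregulators. In the rodent uterus, estradiol acting through estrogen receptor alpha drives growth and secretion of the epithelium, and progesterone acting through the progesterone receptor opposes this and prepares the tissue for the embryo. Estradiol is itself a classic regulator of the progesterone receptor gene in this organ, in opposite directions in epithelium and stroma. The remaining receptors include a G protein-coupled estrogen receptor at membranes, the glucocorticoid receptor, and a pair of heme-binding membrane proteins linked to progesterone signalling.

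The array medians lay between 89.5 and 92.9 intensity units and arrays of a group correlated at r between 0.984 and 0.996 across genes. Values below are log2 of the intensity, and a level of one gene cannot be set against that of another because probes differ in brightness. Female tissue lacks the Y chromosome, and the highest Y-linked values on any array, 7.50 for Sry and 5.36 for Uba1y, show how far signal without transcript can reach. The Sry level comes from a single gene, the next Y-linked gene after Uba1y reached 4.42, and the median over all genes was 6.92. It is therefore a cautious upper guide and not the background of every probe set. The uterine labels could be checked against 5 Hox genes listed for uterine position, whose mean log2 level was 8.26 to 8.31 in E2 uterus and 8.86 to 8.95 in oil uterus, above the 6.02 to 6.28 of E2 oviduct and the 6.21 to 6.26 of oil oviduct. Of the 5, 4 were lower in the oviduct in each treatment. Hoxa13 did not separate the organs, at 5.19 to 5.65 in uterus and 5.25 to 5.47 in oviduct. The oviduct labels could be checked against 7 genes of ciliated cells, with a mean of 8.25 to 8.34 in E2 oviduct and 7.98 to 9.06 in oil oviduct, above 5.46 to 5.64 in E2 uterus and 5.65 to 5.70 in oil uterus. A list of oviduct secretory genes, 4 of 5 measured, did not mark the organ in both treatments. Its mean was 8.60 to 8.77 in oil oviduct, above the 7.95 to 8.07 of oil uterus. With E2 it was 8.58 to 8.62 in oviduct, below the 9.05 to 9.19 of uterus. The oil arrays of replicate 3 stood apart, with 302 genes in the oviduct and 177 in the uterus displaced by over 1 log2 unit relative to the average of their companions. Oil oviduct replicate 3 also had high values for part of a list of luteal and ovarian markers. Akr1c18 (11.51), Cyp11a1 (9.74), Star (9.44) and Hsd3b1 (7.57) were raised on that array. Inha (7.36) and Fshr (4.98) did not exceed both of the other oil oviduct arrays. The mean over the 6 measured markers was 8.43 on that array, while E2 oviduct arrays lay between 5.22 and 5.47 and the other oil oviduct arrays at 5.74 and 5.17. Pgr and Pgrmc2 values that rest on these arrays are given with and without them.

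Esr1, which encodes estrogen receptor alpha, gave a bright and even signal in every group. Its log2 level was 11.03, 11.04 and 10.96 in E2 oviduct and 10.98, 10.97 and 10.93 in oil oviduct. In the uterus it was 10.66, 10.70 and 10.75 with E2 and 10.60, 10.56 and 10.64 with oil. The uterine groups did not overlap, every E2 array lying above every oil array, whereas the oviduct groups overlapped. The E2 effect was nevertheless small, at 0.10 ± 0.06 log2 units (SE) in the uterus, with a 95% interval of -0.021 to 0.23 and an adjusted p of 0.227 from limma's moderated test over all genes. In the oviduct it was 0.05 ± 0.06, with an interval of -0.075 to 0.17 and an adjusted p of 0.823. Daily E2 therefore produced no change of Esr1 transcript that passed the test in either organ.

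Esr2, which encodes estrogen receptor beta, a form best known from ovarian granulosa cells, lay between 5.22 and 5.46 on all 12 arrays. Its values were 5.43, 5.26 and 5.41 in E2 oviduct and 5.46, 5.27 and 5.32 in oil oviduct. They were 5.36, 5.36 and 5.33 in E2 uterus and 5.42, 5.30 and 5.22 in oil uterus. All 4 groups overlapped, and every value was close to the highest Uba1y value of 5.36 and below the Sry value of 7.50. At this signal a change could not be told from background on the array. The measured E2 effects were 0.04 (95% interval -0.13 to 0.21) in the uterus and 0.02 (-0.15 to 0.18) in the oviduct, with adjusted p of 0.790 and 0.969 from limma.

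Gper1, the G protein-coupled receptor that binds estradiol at membranes, gave 6.39, 6.34 and 6.28 in E2 oviduct and 6.49, 6.38 and 6.51 in oil oviduct. In the uterus it gave 6.71, 6.62 and 6.55 with E2 and 6.93, 6.57 and 6.81 with oil. The E2 and oil groups overlapped in both organs, and all 12 values lay below the Sry value, so the size of its changes is uncertain. The E2 effect was -0.14 ± 0.09 in the uterus and -0.12 ± 0.09 in the oviduct (SE), with adjusted p of 0.311 and 0.703 from limma.

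Pgr, which encodes the nuclear progesterone receptor, varied most between the oil oviduct arrays. Its log2 level was 8.55, 8.76 and 8.80 in E2 oviduct, against 9.39, 9.10 and 8.64 in oil oviduct. Oil oviduct replicate 3 fell inside the E2 range and the other oil arrays lay above it, so the groups overlapped because of that array. In the uterus the levels were 9.39, 9.45 and 9.41 with E2, against 9.70, 9.76 and 9.99 with oil, and these groups did not overlap.

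Pgrmc2, a membrane-associated progesterone receptor component that binds heme, also had lower values in both E2 groups. Its log2 level was 8.30, 8.33 and 8.46 in E2 oviduct, against 8.64, 8.88 and 8.47 in oil oviduct. In the uterus it was 7.32, 7.61 and 7.68 with E2, against 7.80, 7.81 and 7.95 with oil. The E2 and oil groups did not overlap in either organ, though in the oviduct the nearest arrays, E2 replicate 3 and oil replicate 3, were almost level.

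Its relative Pgrmc1, which binds heme and partners cytochrome P450 enzymes, showed no such shift. The values were 10.25, 10.41 and 10.39 in E2 oviduct and 10.34, 10.34 and 10.45 in oil oviduct, and 10.45, 10.49 and 10.37 in E2 uterus and 10.45, 10.43 and 10.43 in oil uterus. The E2 effect on Pgrmc1 had an interval of -0.15 to 0.14 in the uterus and -0.17 to 0.12 in the oviduct. The full range over the 12 arrays was 0.24 log2 units for Pgrmc1, against 1.55 for Pgrmc2 and 1.44 for Pgr.

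Nr3c1, the glucocorticoid receptor, which is present in most cell types, had overlapping groups in both organs. It read 8.22, 8.26 and 8.14 in E2 oviduct and 8.36, 8.20 and 8.24 in oil oviduct, and 8.14, 8.29 and 8.39 in E2 uterus and 8.29, 8.44 and 8.19 in oil uterus. The E2 effect was -0.04 (95% interval -0.23 to 0.15) in the uterus and -0.06 (-0.25 to 0.13) in the oviduct.

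**Figure D1:**
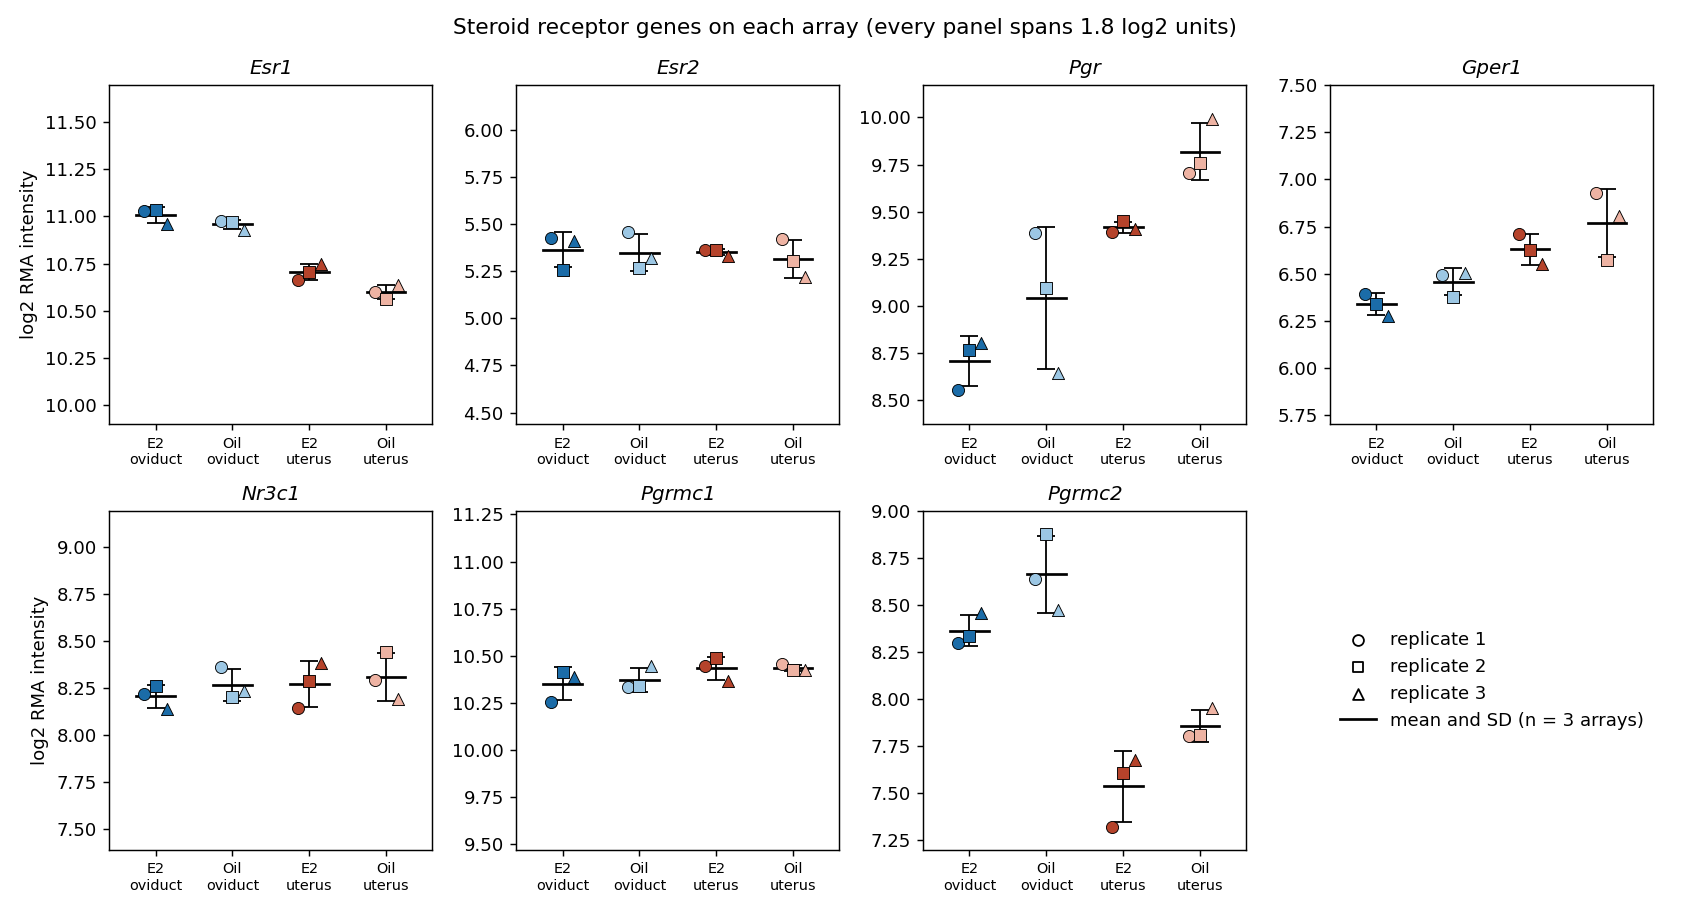
Log2 RMA intensity (vertical axis) of each receptor gene on every array, by group (horizontal axis), with 1 point for an array, a long bar for the group mean and whiskers for the SD (n = 3). Group means of Pgr and Pgrmc2 lie lower with E2, Esr1 and Pgrmc2 lie higher in the oviduct, and Esr2, Nr3c1 and Pgrmc1 spread over 0.24, 0.30 and 0.24 log2 units in all.

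Taken organ by organ, no receptor passed the test of E2 against oil. In the uterus 0 of the 7 had an adjusted p below 0.05, where 26.7% of all genes did. At an unadjusted p below 0.05 there were 2 of 7, Pgr and Pgrmc2, where 36.1% of all genes had one. The groups did not overlap for 3 of 7, Esr1, Pgr and Pgrmc2, where 40.5% of all genes did not. In the oviduct 0 of 7 passed, where 0.291% of all genes did. There 1 of 7, Pgrmc2, had an unadjusted p below 0.05 and non-overlapping groups, against 10.5% and 17.4% of all genes. The shares of receptors were therefore near or below those of genes at large.

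For Pgr the E2 effect in the uterus was -0.40 ± 0.15 (SE), an interval of -0.74 to -0.063, with an unadjusted limma p of 0.0242 and an adjusted p of 0.0791. In the oviduct it was -0.33 ± 0.15, an interval of -0.67 to 0.0044, with an adjusted p of 0.484. Leaving out oil oviduct replicate 3 moved the oviduct value to -0.53 (limma adjusted p 0.107), and leaving out oil oviduct replicate 1 moved it to -0.16 (adjusted p 0.757). Without both oil arrays of replicate 3 the oviduct value had an adjusted p of 0.0557. Leaving out any 1 of the 6 uterine arrays kept the uterine value between -0.46 and -0.32 and short of the test (limma adjusted p 0.0934 to 0.236). It passed without oil oviduct replicate 1 (adjusted p 0.0326) or oil oviduct replicate 3 (0.0120), and without both oil arrays of replicate 3 (-0.32, adjusted p 0.0408). It also passed with each tissue fitted alone (0.0158) and with array weights (-0.31, 0.0269).

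For Pgrmc2 the E2 effect was -0.32 ± 0.11 (SE) in the uterus, with an interval of -0.57 to -0.067 and an adjusted p of 0.0621 from limma. In the oviduct it was -0.30 ± 0.11, with an interval of -0.55 to -0.047 and an adjusted p of 0.380. Leaving out E2 uterus replicate 1 moved the uterine value to -0.21 (limma adjusted p 0.232). It passed without E2 uterus replicate 3 (-0.39, adjusted p 0.0460), oil oviduct replicate 2 (0.0368) or oil oviduct replicate 3 (0.0382), with a filter on low values (0.0367), with a trended and robust variance (0.0464) and with array weights (-0.23, 0.0299). The oviduct value was -0.19 without oil oviduct replicate 2 (adjusted p 0.467) and -0.39 without oil oviduct replicate 3 (0.279). Without both oil arrays of replicate 3 the adjusted p was 0.209 in the oviduct, and in the uterus the value was -0.27 (0.113).

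Averaged over both organs, Pgr and Pgrmc2 fell with E2. This comparison uses the same 12 arrays as the separate ones, and was chosen with the direction of these values known. Here 2 of 7 receptors passed, where 21.5% of all genes did and 11.6% passed as lower. Pgr fell by 0.37 ± 0.11 log2 units (SE; -0.61 to -0.13; limma adjusted p 0.0329), which is 0.775 of the oil level. Pgrmc2 fell by 0.31 ± 0.08 (-0.49 to -0.13; limma adjusted p 0.0184), which is 0.808 of the oil level. The other receptors gave -0.13 for Gper1, 0.08 for Esr1, -0.05 for Nr3c1, 0.03 for Esr2 and -0.01 for Pgrmc1, and their adjusted p lay between 0.184 and 0.909. The Pgrmc2 call held in all 21 alternative fits, with limma adjusted p between 0.00567 and 0.0479. None of the 21 fits used a block for each mouse within a treatment. Whether same-numbered oviduct and uterus arrays share a mouse is not known, and the effect of such sharing on this average was not tested. The Pgr call held in 12 of 21. It was lost with the replicate number as a block (adjusted p 0.0559) and when a single array was left out in 8 cases, which were oil uterus replicate 3 (adjusted p 0.0717), E2 uterus replicates 1, 2 and 3 (0.0685, 0.0578 and 0.0593), oil oviduct replicates 1 and 2 (0.0560 and 0.0593), and E2 oviduct replicates 1 and 2 (0.0821 and 0.0530). Over the 21 fits the Pgr value kept its sign and ran between -0.47 and -0.28. Without both oil arrays of replicate 3 the averaged effect was -0.42 for Pgr (adjusted p 0.00211) and -0.33 for Pgrmc2 (0.0145). Gper1, uncalled here, passed when oil uterus replicate 2 was left out (-0.18, adjusted p 0.0400) and with array weights (-0.17, adjusted p 0.0292).

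**Figure D2:**
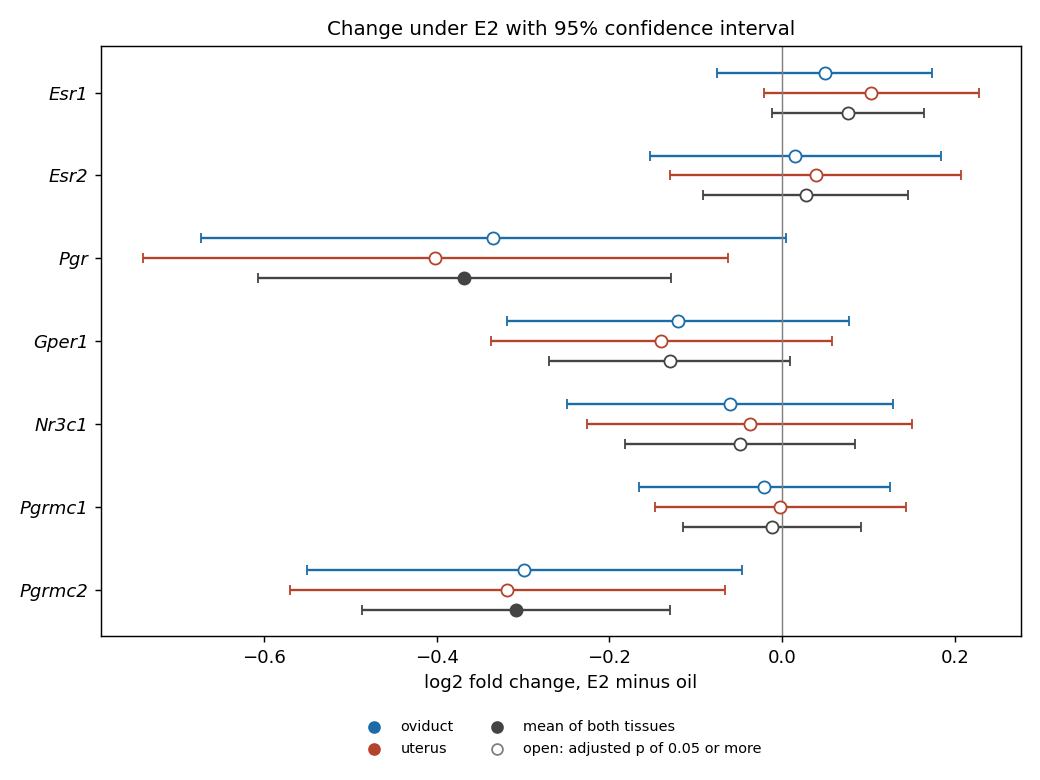
Log2 fold change of E2 over oil (horizontal axis) with its 95% confidence interval for each receptor, in oviduct, in uterus and averaged over both; filled points have an adjusted p below 0.05. The filled points are the averages of Pgr (-0.37) and Pgrmc2 (-0.31).

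The E2 effect did not differ detectably between the organs for any receptor. The test of the difference, oviduct minus uterus, passed for 0 of 7, where it passed for 11.5% of all genes, and 0 of 7 had an unadjusted p below 0.05 where 23.7% of all genes had one. The difference was 0.07 for Pgr with an interval of -0.41 to 0.55, and 0.02 for Pgrmc2 with an interval of -0.34 to 0.38. For Esr1 it was -0.05, from -0.23 to 0.12. The intervals for Pgr and Pgrmc2 reach beyond the size of the effects themselves, so these data do not show that the effects are alike.

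Cell type markers differed between E2 and oil tissue beside these values. In bulk tissue, fewer cells of a type and less RNA per cell cannot be told apart. Of 8 epithelial markers, 8 rose with E2 in the uterus, and their summed intensity was 8144 to 9145 in E2 uterus against 3357 to 3918 in oil uterus. Of 8 stromal markers, 3 fell, with sums of 18683 to 19129 against 20145 to 20767. Of 6 endothelial markers, 6 fell, with sums of 2741 to 2957 against 4141 to 4786. Of 6 macrophage markers, 5 rose, with sums of 3294 to 3696 against 1729 to 2182. Of 7 smooth muscle markers, 2 rose, and of 4 measured oviduct secretory markers, 4 rose. Over all genes, 12.4% rose and 14.3% fell in the uterus. In the oviduct 1 of 8 epithelial and 1 of 4 oviduct secretory markers fell, where 0.13% of all genes did. No stromal, endothelial, smooth muscle or macrophage marker passed the test there, but the macrophage list had a median of 0.58. The macrophage sums were 2228 to 2758 in E2 oviduct against 1246 to 2008 in oil oviduct. Averaged over both organs, 7 of 8 epithelial, 6 of 6 macrophage, 3 of 4 oviduct secretory and 1 of 7 smooth muscle markers rose. In that average 5 of 6 endothelial and 2 of 8 stromal markers fell. Of all genes, 21.5% passed the averaged test in either direction, and 11.6% passed as lower. Every deposited intensity was above 0 for all genes, so these values cannot show whether a cell type was present or absent. On oil oviduct replicate 3, Pgr lay 0.60 below and Pgrmc2 0.29 below the mean of the other oil oviduct arrays, and ciliated markers averaged 9.06 there against 8.24 and 7.98. The part of these markers in the Pgr and Pgrmc2 values was not tested.

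The start regions of Pgr, Pgrmc1 and Pgrmc2 are shown. They were chosen because Pgr and Pgrmc2 fell with E2 in the average over organs and Pgrmc1 did not pass that test. Windows of 300 bases, running 250 bases before to 50 after the listed start site, come from RefSeq (build GRCm38.p6). They were taken for 6 of the 7 genes, Esr1 with 2 windows. Capitals mark GGGCGG or its reverse complement CCGCCC, the box that Sp1-family factors recognise. The Pgr window is chr9:8899583-8899882 on the plus strand, Pgrmc1 is chrX:36597943-36598242 on the plus strand, and Pgrmc2 is chr3:41082997-41083296 on the minus strand. The listed Pgr start site lies 933 bases inside the annotated span of the gene in that build, so its window does not cover the outermost start, whereas those of Pgrmc1 and Pgrmc2 sit at the outer end.
Pgr: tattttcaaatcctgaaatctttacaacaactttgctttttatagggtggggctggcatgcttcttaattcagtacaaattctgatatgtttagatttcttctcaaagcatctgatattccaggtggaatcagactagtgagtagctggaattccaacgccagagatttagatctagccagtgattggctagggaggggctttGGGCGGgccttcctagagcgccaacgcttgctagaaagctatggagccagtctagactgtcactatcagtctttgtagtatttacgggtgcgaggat
Pgrmc2: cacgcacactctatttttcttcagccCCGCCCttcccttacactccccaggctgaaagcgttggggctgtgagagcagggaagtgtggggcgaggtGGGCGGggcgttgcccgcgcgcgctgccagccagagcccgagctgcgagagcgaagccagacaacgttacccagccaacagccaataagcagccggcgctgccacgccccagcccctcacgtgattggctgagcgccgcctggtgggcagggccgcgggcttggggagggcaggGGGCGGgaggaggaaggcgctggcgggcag
Pgrmc1: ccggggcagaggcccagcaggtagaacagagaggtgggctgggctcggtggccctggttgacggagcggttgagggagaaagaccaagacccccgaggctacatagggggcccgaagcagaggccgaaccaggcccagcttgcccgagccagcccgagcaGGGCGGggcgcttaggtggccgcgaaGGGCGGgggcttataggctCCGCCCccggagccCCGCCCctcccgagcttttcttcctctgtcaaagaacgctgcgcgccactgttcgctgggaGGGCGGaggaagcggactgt
The Pgr window holds 1 such box, beginning 47 bases before that listed site, and its GC content is 43.7%. The Pgrmc2 window holds 3 boxes at a GC content of 69.3%, and the Pgrmc1 window holds 5 at 69.0%. Of all 32851 windows in the table, 35.7% hold the box.

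The estrogen response element, GGTCA followed after 3 free bases by its reverse complement TGACC, was searched on both strands and was in none of the 7 windows, and 0.07% of all windows hold it. Its half-site GGTCA, which 40.5% of all windows hold, occurred once in 1 of the Esr1 windows and at 2 places in the Esr2 window, and not in those of Pgr, Pgrmc1, Pgrmc2 or Gper1. The element shared by the glucocorticoid and progesterone receptors, GAACA followed after 3 free bases by TGTTC, was in none of the 7 windows, against 0.0578% of all windows. A half-site of these receptors, TGTTCT, was also searched on both strands. It occurred once, as its reverse complement AGAACA in the Pgrmc1 window, and 19% of all windows hold it. The AP-1 motif TGANTCA was in none, against 7.81% of all. These matches describe the letters of the windows only. Nr3c1 was left out of the search, so nothing is said here about its start region.

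**Figure D3:**
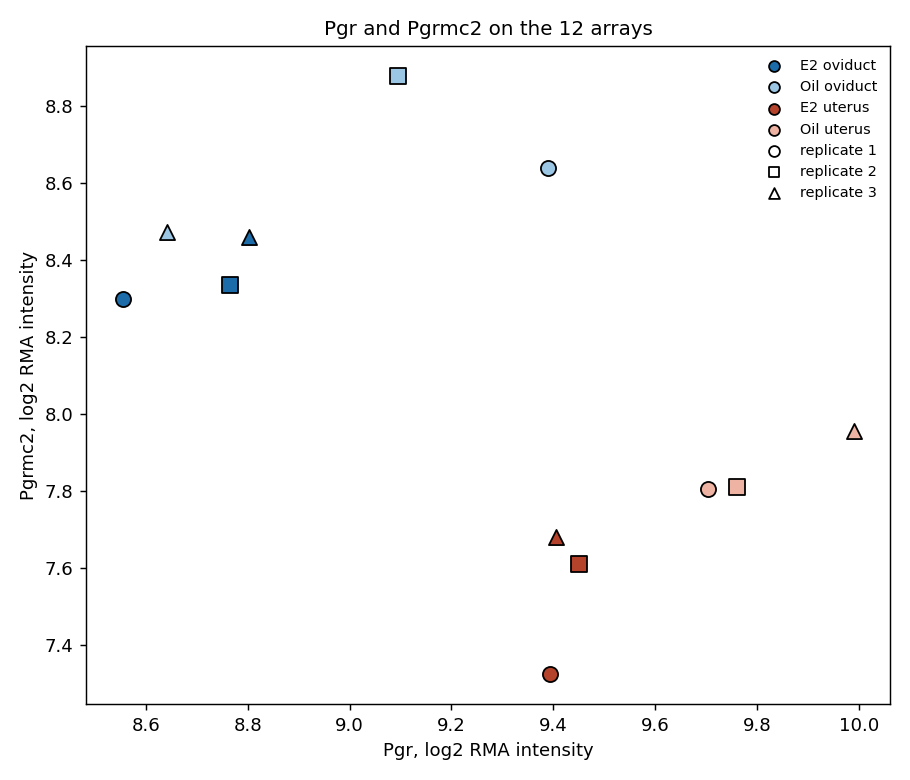
Log2 level of Pgrmc2 (vertical axis) against that of Pgr (horizontal axis) on each of the 12 arrays, coloured by group and shaped by replicate. Oviduct arrays lie upper left and uterus arrays lower right, and within each organ E2 arrays lie toward lower values of both genes except beside oil oviduct replicate 3.

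More receptors differed between the organs than between the treatments, and the same held over all genes. E2 against oil passed for 26.7% of all genes in the uterus and 0.291% in the oviduct. In E2 mice 4 of 7 receptors differed between oviduct and uterus, where 34.1% of all genes did, and in oil mice 4 of 7 differed, where 38.7% did. The same genes passed in both treatments: 2 of 7, Esr1 and Pgrmc2, were higher in the oviduct (15.2% of all genes in E2 mice and 17.3% in oil mice), and 2 of 7, Pgr and Gper1, were lower (18.9% and 21.5%). Their groups did not overlap in either treatment, where 49.8% of all genes in E2 mice and 46.6% in oil mice did not overlap.

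Pgrmc2 averaged 8.36 ± 0.08 in E2 oviduct against 7.54 ± 0.19 in E2 uterus, and 8.66 ± 0.20 in oil oviduct against 7.86 ± 0.09 in oil uterus (SD, n = 3 each). That is 1.77-fold higher in the oviduct of E2 mice and 1.75-fold higher in that of oil mice, with limma adjusted p of 0.000173 and 0.000155. Without both oil arrays of replicate 3 the difference in oil mice was 0.95 log2 units in place of 0.81 (adjusted p 0.000178). Some uterine values lie near or below the Sry level of 7.50, so the fold is a rough size.

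Esr1 averaged 11.01 ± 0.04 in E2 oviduct against 10.70 ± 0.04 in E2 uterus, and 10.96 ± 0.03 in oil oviduct against 10.60 ± 0.04 in oil uterus. It was 1.24-fold and 1.28-fold higher in the oviduct, with limma adjusted p of 0.00136 and 0.000339.

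Pgr ran the other way, averaging 8.71 ± 0.13 in E2 oviduct against 9.42 ± 0.03 in E2 uterus, and 9.04 ± 0.38 in oil oviduct against 9.82 ± 0.15 in oil uterus. The oviduct held 0.612 of the uterine level in E2 mice and 0.584 in oil mice, with limma adjusted p of 0.00379 and 0.00171. Without both oil arrays of replicate 3 the difference in oil mice was -0.49 in place of -0.78, with an adjusted p of 0.00570. The calls for Esr1, Pgr and Pgrmc2 held in 22 of 22 alternative fits in both treatments.

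Gper1 was lower in the oviduct by 0.29 ± 0.09 log2 units in E2 mice and by 0.31 ± 0.09 in oil mice (SE; limma adjusted p 0.0259 and 0.0167). Both calls depended on single arrays. In E2 mice the call was lost without E2 uterus replicate 1 (adjusted p 0.0897), E2 uterus replicate 2 (0.0659), E2 oviduct replicate 2 (0.0640) or E2 oviduct replicate 3 (0.0906). In oil mice it was lost without oil uterus replicate 1 (0.0755), oil oviduct replicate 2 (0.0613) or both oil arrays of replicate 3 (0.0544).

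Esr2, Nr3c1 and Pgrmc1 did not pass in either treatment. Their differences, oviduct minus uterus, were 0.01, -0.06 and -0.08 in E2 mice and 0.04, -0.04 and -0.06 in oil mice. The lowest bound of the 95% intervals was -0.25, for Nr3c1 in E2 mice, and the highest was 0.20, for Esr2 in oil mice.

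Ordered by mean level, Esr1 ran E2 oviduct, oil oviduct, E2 uterus, oil uterus, and neighbours of the same organ did not differ by the test. Pgr ran oil uterus, E2 uterus, oil oviduct, E2 oviduct, with no test passed between neighbours of the same organ. Pgrmc2 ran oil oviduct, E2 oviduct, oil uterus, E2 uterus, again with no test passed between neighbours of the same organ.

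**Figure D4:**
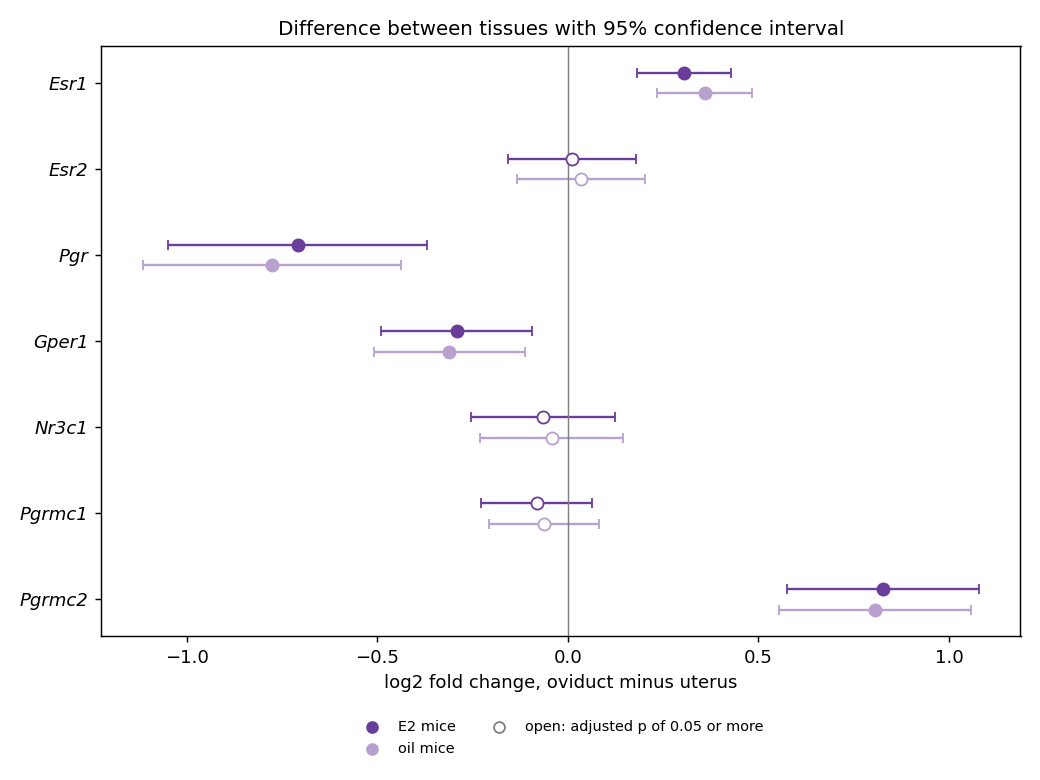
Log2 fold change of oviduct over uterus (horizontal axis) with its 95% confidence interval for each receptor, in E2 mice and in oil mice; filled points have an adjusted p below 0.05. Pgrmc2 (0.83 and 0.81) and Esr1 (0.30 and 0.36) lie right of 0, Pgr (-0.71 and -0.78) and Gper1 (-0.29 and -0.31) lie left of it.

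The organs also differed in their marker genes. In E2 mice 1 of 8 epithelial markers was higher and 3 were lower in the oviduct, and in oil mice 7 were higher. Of 8 stromal markers, 5 were lower and 1 higher in the oviduct of E2 mice, and 6 were lower in oil mice. Endothelial markers were lower for 5 of 6 in E2 mice and 6 of 6 in oil mice, and ciliated markers were higher for 7 of 7 in both. Smooth muscle markers were lower for 5 of 7 in E2 mice and 0 of 7 in oil mice, and macrophage markers for 4 of 6 in E2 mice and 1 of 6 in oil mice. Oviduct secretory markers were higher in the oviduct for 1 of 4 and lower for 3 of 4 in E2 mice. In oil mice 4 of 4 were higher. The shares over all genes were 15.2% higher and 18.9% lower in E2 mice, and 17.3% and 21.5% in oil mice. The epithelial sums were 7939 to 8481 in E2 oviduct against 8144 to 9145 in E2 uterus, and 8295 to 9280 in oil oviduct against 3357 to 3918 in oil uterus. The difference between organs was -0.71 and -0.78 for Pgr, 0.30 and 0.36 for Esr1 and 0.83 and 0.81 for Pgrmc2 in E2 and oil mice. The part of cell makeup in these differences was not tested.

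The gene lists from here on were drawn up with results of these arrays known, so their counts and directions are not independent evidence. Other steroid and progestin receptors, a list of which 8 of 9 genes were measured, included 2 that rose with E2 in the uterus and none that fell, where 12.4% of all genes rose and 14.3% fell. Nr3c2, the mineralocorticoid receptor, averaged 6.68 ± 0.18 in E2 uterus against 6.10 ± 0.20 in oil uterus (0.57 log2 units; limma adjusted p 0.00630). Paqr5, a membrane progestin receptor, averaged 6.86 ± 0.07 against 6.47 ± 0.12 (0.39; adjusted p 0.0311). That call was lost without oil uterus replicate 1 or 2 or any 1 of the E2 uterus arrays (limma adjusted p 0.0519 to 0.113). None passed in the oviduct, where 0.16% of all genes rose and 0.13% fell. Between organs 3 of 8 were higher in the oviduct in E2 mice and 6 of 8 in oil mice, and none was lower. Of all genes, 15.2% were higher and 18.9% lower in E2 mice, and 17.3% and 21.5% in oil mice. In oil mice the oviduct exceeded the uterus by 0.80 for Nr3c2 and 0.75 for Paqr5. All these group means lie below the Sry level of 7.50, so the sizes are uncertain.

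Of 30 measured genes for other nuclear receptors, 8 rose and 4 fell in the E2 uterus, where 12.4% of all genes rose and 14.3% fell, and none passed in the oviduct. The share that fell is near that of all genes. Nr1d1, a heme-binding repressor of the circadian clock, averaged 9.92 ± 0.02 in E2 uterus against 8.63 ± 0.12 in oil uterus, a rise of 1.29. Its partner Nr1d2 rose by 0.69 and Thrb, a thyroid hormone receptor, by 0.55. Nr5a2, an orphan receptor needed for ovulation and decidualisation, fell by 0.56 at a low signal, averaging 5.64 ± 0.11 in E2 uterus against 6.20 ± 0.04 in oil uterus. Nr2f2, a stromal factor known as COUP-TFII, fell by 0.29, a call lost without oil uterus replicate 3 (limma adjusted p 0.0573) or E2 uterus replicate 1 (0.0777). Ppara, a regulator of fatty acid oxidation, fell by 0.27, a call lost without oil uterus replicate 3 (0.0591), E2 uterus replicate 2 (0.0726) or both oil arrays of replicate 3 (0.0556). Between organs 6 were higher and 10 lower in the oviduct of E2 mice, and 10 higher and 7 lower in that of oil mice. The shares over all genes were 15.2% higher and 18.9% lower in E2 mice, and 17.3% and 21.5% in oil mice. In oil mice Rorb averaged 5.65 ± 0.37 in oviduct against 8.65 ± 0.49 in uterus, while Vdr, the vitamin D receptor, averaged 7.37 ± 0.07 against 6.04 ± 0.11.

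Of 14 measured receptor chaperones, 8 fell with E2 in the uterus and none rose, where 14.3% of all genes fell, with a median of -0.38 where the median over all genes was -0.0007. Stip1, which passes receptors between HSP70 and HSP90, averaged 8.88 ± 0.09 in E2 uterus against 9.77 ± 0.23 in oil uterus, a fall to 0.537 of the oil level. Hsp90aa1, the inducible HSP90, fell by 0.82 and Ppid, a cyclophilin of the receptor complex, by 0.61. None passed in the oviduct, where the median was -0.23. Between organs 5 were higher and 1 lower in the oviduct of E2 mice, and 3 higher and 2 lower in that of oil mice. Of all genes, 15.2% were higher and 18.9% lower in E2 mice, and 17.3% and 21.5% in oil mice.

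Of 17 measured receptor coregulators, 1 rose and 4 fell in the E2 uterus, where 12.4% of all genes rose and 14.3% fell, with a median of -0.02, and none passed in the oviduct. Ncoa3, a coactivator of nuclear receptors, averaged 8.86 ± 0.07 in E2 uterus against 8.40 ± 0.09 in oil uterus. The arginine methyltransferases Prmt1 and Carm1 fell by 0.70 and 0.51, and Phb2, a repressor of estrogen receptor activity, by 0.33. Prmt1 and Carm1 were also lower in the oviduct than in the uterus of oil mice, by 0.66 and 0.54.

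The next lists hold genes known to respond to these receptors, and they too were drawn up with results of these arrays known. Of 18 measured estrogen receptor targets, 11 rose and 4 fell in the E2 uterus, where 12.4% of all genes rose and 14.3% fell, with a median of 1.07, and none passed in the oviduct, with a median of 0.08. Ltf, the secreted iron-binding protein lactoferrin, averaged 12.05 ± 0.06 in E2 uterus against 6.60 ± 0.25 in oil uterus. Clca1, a secreted regulator of chloride channels, averaged 12.36 ± 0.13 against 5.58 ± 0.19. Lcn2, an iron-sequestering lipocalin, rose by 5.14. Myc and Igf1, which promote growth, fell by 1.55 and 1.16, and Mad2l1, a spindle checkpoint gene, fell by 0.65, a call lost without oil uterus replicate 1 or 2 or E2 uterus replicate 1 or 2 (limma adjusted p 0.100 to 0.145), with each tissue fitted alone (0.0791) and with the replicate block (0.0545). Set against the uterus, 3 targets were higher and 10 lower in the oviduct of E2 mice. In oil mice 7 were higher and 3 lower. Of all genes, 15.2% were higher and 18.9% lower in E2 mice, and 17.3% and 21.5% in oil mice. Ltf in oil mice averaged 10.73 ± 0.48 in oviduct against 6.60 ± 0.25 in uterus, and Lcn2 10.70 ± 0.38 against 7.39 ± 0.44. Myc and Igf1 were lower in that oviduct, by 1.46 and 1.34.

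Of 16 measured progesterone receptor targets, 13 fell with E2 and none rose in the uterus, where 14.3% of all genes fell, with a median of -1.44, beside the Pgr value of -0.40 there. This list was drawn up with results of these arrays known, so its direction is not independent evidence. Lrp2, an endocytic receptor of epithelium, averaged 5.76 ± 0.18 in E2 uterus against 10.06 ± 0.29 in oil uterus. Acod1, an enzyme that makes itaconate and is induced at uterine receptivity, averaged 5.77 ± 0.10 against 9.62 ± 0.66, and Spink1, a protease inhibitor, 3.51 ± 0.18 against 7.43 ± 0.58. In the oviduct 2 of 16 fell, where 0.13% of all genes did, and the list median was -0.08. There Npl, which cleaves sialic acid, averaged 8.65 ± 0.09 with E2 against 10.21 ± 0.49 with oil (limma adjusted p 0.0118), and Acod1 averaged 5.37 ± 0.29 against 7.26 ± 0.38 (adjusted p 0.0264). The Npl call was lost without oil oviduct replicate 1 or any 1 of the E2 oviduct arrays (limma adjusted p 0.0519 to 0.0927) and with each tissue fitted alone (0.113). The Acod1 call was lost without E2 uterus replicate 1, oil oviduct replicate 2 or 3, or any 1 of the E2 oviduct arrays (0.0505 to 0.138), with each tissue fitted alone (0.0566) and with the replicate block (0.0537). Between organs 6 targets were higher and 4 lower in the oviduct of E2 mice, and 2 higher and 10 lower in that of oil mice. Of all genes, 15.2% were higher and 18.9% lower in E2 mice, and 17.3% and 21.5% in oil mice. Among the targets lower in oil mice was Hoxa11, a regulator of uterine identity, at 5.66 ± 0.08 against 9.58 ± 0.02.

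Of 16 measured glucocorticoid receptor targets, 2 rose and 2 fell in the E2 uterus, with a median of -0.01. These shares are near the 12.4% and 14.3% of all genes, and none passed in the oviduct. Lcn2, which is also on the estrogen list, rose as given above, and Pdk4, a kinase that restrains glucose oxidation, averaged 7.52 ± 0.08 in E2 uterus against 6.25 ± 0.21 in oil uterus. The metallothioneins Mt2 and Mt1, which bind zinc, fell by 0.77 and 0.40, and the Mt1 call was lost without oil uterus replicate 1 or 3 or any 1 of the E2 uterus arrays (limma adjusted p 0.0503 to 0.109) and with each tissue fitted alone (0.0563). Between organs 4 were higher and 2 lower in the oviduct of E2 mice, and 6 higher and 2 lower in that of oil mice. Over all genes 15.2% were higher and 18.9% lower in E2 mice, and 17.3% and 21.5% in oil mice.

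**Figure D5:**
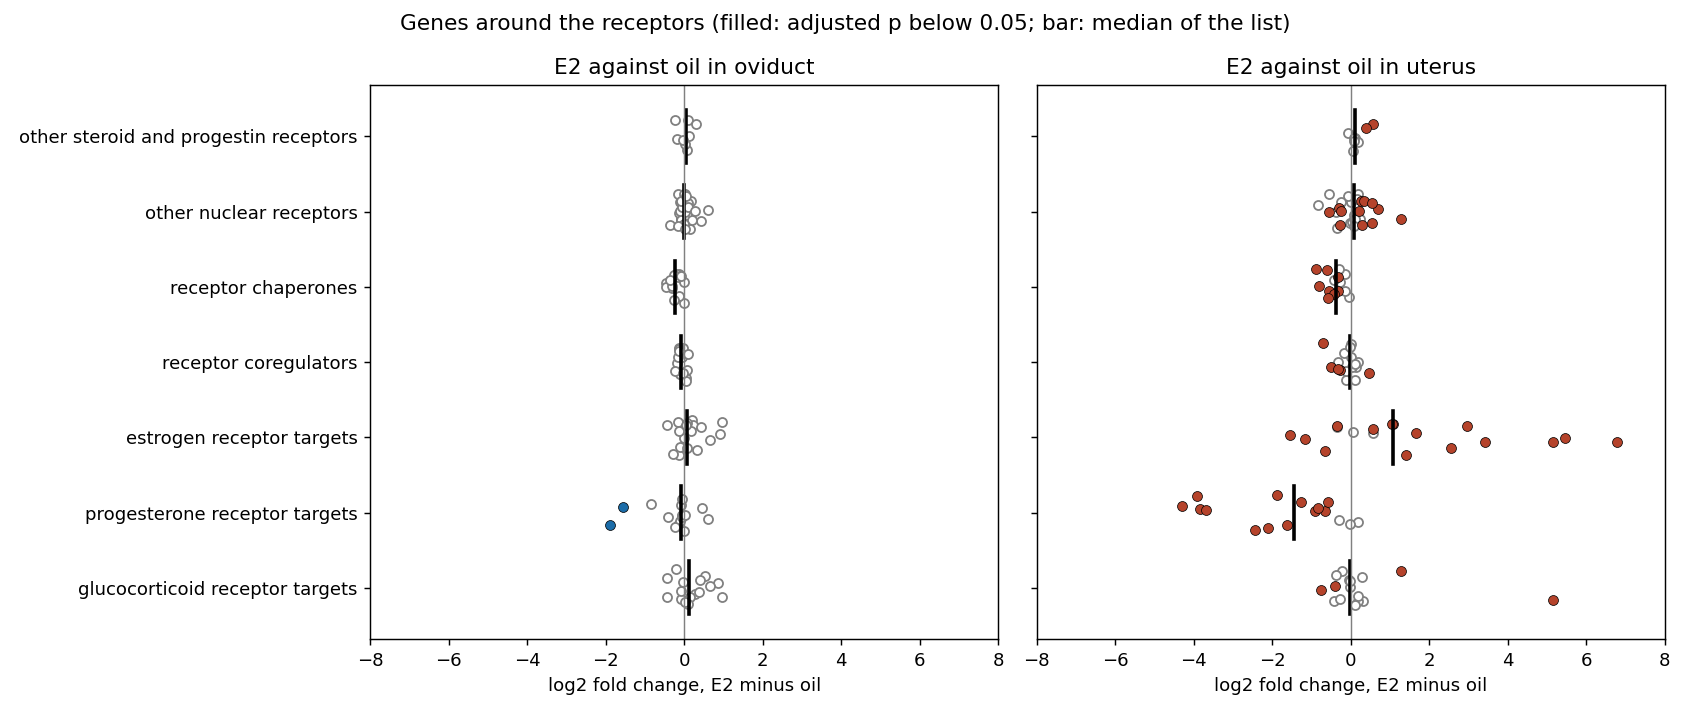
Log2 fold change of E2 over oil (horizontal axis) for each measured gene of the 7 lists, in oviduct and in uterus; each point is a gene, filled where its adjusted p is below 0.05, and bars mark list medians. Estrogen receptor targets spread to the right in the uterus with a median of 1.07, progesterone receptor targets to the left with a median of -1.44, and chaperones have a median of -0.38.

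The genes whose levels ran most like each receptor were found by Pearson correlation over the 12 arrays, which share 4 groups and therefore mostly share the difference between organs. For Esr1 they were Podn, a small leucine-rich proteoglycan (r = 0.995), Osbpl10 (0.989) and Smim14 (0.988), and 1069 genes exceeded 0.9. For Pgr they were Stag1, a cohesin subunit (0.973), Tsc22d2 (0.972) and Zfp131 (0.970), and 285 genes exceeded 0.9. For Pgrmc2 they were Agpat4, an acyltransferase of phospholipid synthesis (0.988), Tcaim (0.983) and Cers2, a ceramide synthase (0.969), and 233 genes exceeded 0.9. For Gper1 they were 5730409E04Rik (0.943), Hnrnpa0 (0.937) and 5730408K05Rik (0.933). The receptors that hardly varied had few close matches. The highest were Olfr570 for Esr2 (0.917), Pla2g2a for Pgrmc1 (0.902) and Oxsm for Nr3c1 (0.871), with 1, 1 and 0 genes above 0.9.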

How the data were processed

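The deposited table holds 1 intensity per probe set and array, made by the authors with RMA, per the submitters' processing notes; sources used here name no RMA version or genome build. The design assumed log2 data, but the deposited intensities are linear (array maxima 9102 to 9950), so log2 was taken first. Of 35556 probe sets, 21789 had 1 gene symbol, 1621 several and 12146 none listed; 21698 matched GRCm38.p6 gene identifiers. A gene took its single-symbol probe set with the highest mean, giving 19938 genes, with no intensity filter.

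limma 3.58.1 (lmFit and eBayes, R 4.3.3) fitted 1 mean per group on the 12 arrays. Tests were two-sided and p-values were adjusted by Benjamini-Hochberg across the 19938 genes, with a call below 0.05. Intervals are 95%. The number of arrays limits the precision. The receptors, gene lists and tests were chosen with earlier results of these data known. Genes named besides the receptors were up to 3 of each list in each direction by size of change among those that passed for E2 against oil, up to 2 between organs in oil mice, and the 3 best correlated with each receptor. Alternatives changed the normalization, the filter, the probe set rule, the variance model, array weights, the replicate block and the arrays left out. Other E2 doses were not analysed here.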

Additional observations from a re-analysis of the deposited data

Results flagged for a closer look

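Of the 28 genes named from the lists for E2 against oil, 18 had an E2 effect that differed between organs by limma's test of the difference, oviduct minus uterus, on the log2 scale, where 11.5% of all genes did. These genes were picked by size of change, mostly in the uterus, so a difference between organs was favoured by the choice and their share cannot be set against that of the receptors. Among estrogen receptor targets the difference was -6.13 for Clca1, -5.23 for Ltf, -4.17 for Lcn2, 1.45 for Myc and 1.02 for Igf1. Among progesterone receptor targets it was 3.87 for Spink1, 3.46 for Lrp2, 2.14 for Npl and 1.95 for Acod1. Among other receptors it was -1.38 for Nr1d1, -0.78 for Nr1d2, -0.54 for Thrb, 0.58 for Nr5a2 and -0.63 for Paqr5. Among coregulators it was 0.40 for Carm1, 0.55 for Prmt1 and 0.31 for Phb2, and the glucocorticoid target Pdk4 gave -0.87. The causes were not tested.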

How the results depend on the processing

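Over 905 alternative values of the receptors, 61 changed sign and none of those was called. The count of receptors past the test of E2 against oil in the uterus, 0 of 7 as reported, was 1 with each tissue fitted alone, 1 with a filter on low values, 1 with a trended and robust variance and 3 with array weights, and 0 to 2 when arrays were left out. The filter on low values removed Esr2 and Gper1, so its count covers only the remaining receptors. For the E2 effect averaged over both organs the count, 2 as reported, was 1 with the replicate block, 3 with array weights and 1 to 3 when arrays were left out; the block ended the Pgr call (adjusted p 0.0559). The oviduct count and the count of differing E2 effects stayed at 0 in every alternative run. Between organs the counts, 4 as reported, were 3 to 4 with arrays left out in both treatments. Over all genes, the number past the test in the oviduct, 58 as reported, was 10 with each tissue fitted alone, 264 with array weights, 14 to 67 with 1 array left out and 121 without both oil arrays of replicate 3. Array weights also gave 8214 genes in place of 5332 in the uterus, 4531 in place of 2288 for the difference of E2 effects, and 10554 in place of 6793 between organs in E2 mice. Of 1155 alternative values of the other named genes, 75 lost the call and no call changed sign. Among list counts in the uterus, the alternatives gave 1 to 5 for glucocorticoid targets higher and 1 to 5 lower (2 each as reported), 1 to 4 for coregulators higher (1 as reported), 5 to 10 and 2 to 5 for other nuclear receptors higher and lower (8 and 4), 0 to 4 for other steroid and progestin receptors higher (2), 2 to 4 for estrogen targets lower (4) and 11 to 14 for progesterone targets lower (13). Deviations of same-numbered arrays from their group means correlated at r between 0.0045 and 0.26 for oviduct and uterus of the same treatment and between -0.22 and 0.19 for pairs across treatments. Not every pair exceeded 0.1, so the block was used as an alternative only, and whether these arrays share a mouse is not known. The cause of these changes was not tested. Signal over background limits Esr2, Gper1 and the uterine values of Pgrmc2.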
